A study of Mus musculus with 26 samples.

Results

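Blastomeres of mouse embryos at the 8-cell stage were examined for 8 genes that later separate the primitive endoderm from the epiblast, and that carry the FGF signal between these lineages: Gata6, Gata4, Sox17 and Pdgfra on the primitive endoderm side, and Fgf4, Fgfr1, Fgfr2 and Grb2 on the FGF side. The genes were chosen by name, and all 8 were found by gene identifier among the 55487 genes of the RNA table. Both RNA and DNA had been read from the same cells by scRR-seq, in which the nuclear DNA is bound to beads after lysis and the dissolved RNA is taken off for its own library. The embryos came from in vitro fertilization with gametes of C57BL/6 mice, carried no engineered allele and had received no treatment, and their blastomeres were dissociated by hand. Of 13 labelled cells, 9 had columns and were analysed, 3 from embryo 1 and 6 from embryo 2. The labels give these cells as blastomeres of an 8-cell embryo and no more. Each embryo was 1 biological replicate, so nothing between the embryos was tested, and the spread given with a mean is the SD between cells of an embryo.

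The embryos differed in ways that touch every comparison between them. Bins called replicated made up between 0.00385% and 3.54% of the called 40-kb bins in the embryo 1 cells. In the embryo 2 cells they made up between 62.4% and 80.5%. The paper classed representative embryo 1 cells as either G1 or G2/M, because their copy number was uniform. An unreplicated call in embryo 1 therefore does not tell a genome before replication from a fully replicated one. In TPM, a length-scaled share of all transcripts of a cell, Xist RNA was 140 to 181 in the cells of embryo 1, whereas those of embryo 2 had at most 0.90. The summed RNA of 4 Y-linked genes was 0.96 to 1.84 TPM and 47.7 to 126 TPM, respectively. Embryo, replication state and sex therefore cannot be told apart. In addition, the sample list of the study assigns 3 cells (cell 1 of embryo 1, cells 2 and 3 of embryo 2) to the scRR3 protocol with a larger lysis volume and the other 6 cells to scRR1. The scRR3 cells had 12411 to 13319 genes above 1 TPM, and the scRR1 cells had 11058 to 11960. For embryo cells the paper reports that scRR1 coverage was biased to the 3′ end of transcripts. Mitochondrial genome RNA took 9.31% to 18.2% of the TPM in the 4 scRR1 cells of embryo 2 and 4.28% to 6.82% in the other 5 cells.

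In the blastocyst, cells of the inner cell mass become either epiblast, which holds the pluripotency factor NANOG, or primitive endoderm, which holds GATA6 and then GATA4 and SOX17 and displays the receptor PDGFRA. Epiblast precursors secrete FGF4. Neighbouring cells receive it through FGFR1 and FGFR2, the adaptor GRB2 couples the active receptors to Ras and the ERK kinases, and this signal favours the primitive endoderm. The 8-cell stage precedes these decisions, and both sets of genes are known to overlap in single cells of early embryos.

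RNA of marker genes was set beside the labelled stage. Pou5f1 is counted below among the epiblast genes too, so its RNA does not tell the stage by itself. Of 7 markers of 8-cell blastomeres, 6 were above 1 TPM in all 9 cells, led by Klf5 (141 to 443 TPM), Pou5f1 (117 to 346 TPM) and Cdh1 (52.4 to 180 TPM), which encode transcription factors and the adhesion molecule E-cadherin. Of 8 cumulus and granulosa markers, 1 exceeded 1 TPM in any cell and 5 were listed at 0 throughout, and the summed level of the list was 0 in embryo 1 and 0 to 6.13 TPM in embryo 2. Of 5 markers of the 2-cell stage, 1 exceeded 1 TPM in any cell. RNA of oocyte markers was present, with a summed level of 27.5 to 50.5 TPM in the embryo 1 cells and 14.2 to 63.8 TPM in the others, mostly Zp3 (3.18 to 45.6 TPM), Gdf9 (2.49 to 13.98 TPM) and Nlrp5 (2.88 to 7.80 TPM). Among 6 trophectoderm markers, Hand1 reached 3.40 to 95.2 TPM, while Cdx2, the defining factor of this lineage, passed 1 TPM in 3 cells, with 9.8 TPM at most, and Krt7 ranged from 0.24 to 7.68 TPM.

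At the threshold of 1 TPM, 7 of the 8 genes were detected in every cell of embryo 1. In embryo 2 an average of 6.33 ± 0.82 genes (SD, n = 6) passed it, since Pdgfra and Fgf4 were each at or below 1 TPM in 2 of its cells. Over all 9 cells the order of the mean levels was Gata6 (159 TPM), Grb2 (56.7 TPM), Fgfr2 (35.3 TPM), Gata4 (21.96 TPM), Fgf4 (12.9 TPM), Fgfr1 (12.7 TPM), Pdgfra (3.11 TPM) and Sox17 (0 TPM). TPM is scaled by transcript length, so levels of different genes can be set side by side, within the limit that the 3′ bias of scRR1 sets. Gata6 exceeded Grb2 in 9 of 9 cells, and Fgfr1 exceeded Pdgfra in 9 of 9 cells. The neighbours between these positions did not keep their order. Grb2 was above Fgfr2 in 7 of 9 cells, Fgfr2 above Gata4 in 7, Gata4 above Fgf4 in 6 and Fgf4 above Fgfr1 in 3, and in each of these pairs the mean difference on the log2(TPM + 1) scale (0.68, 1.16, 1.12 and -0.77) was smaller than its SD between cells (0.75, 1.48, 2.66 and 1.77).

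**Figure D1:**
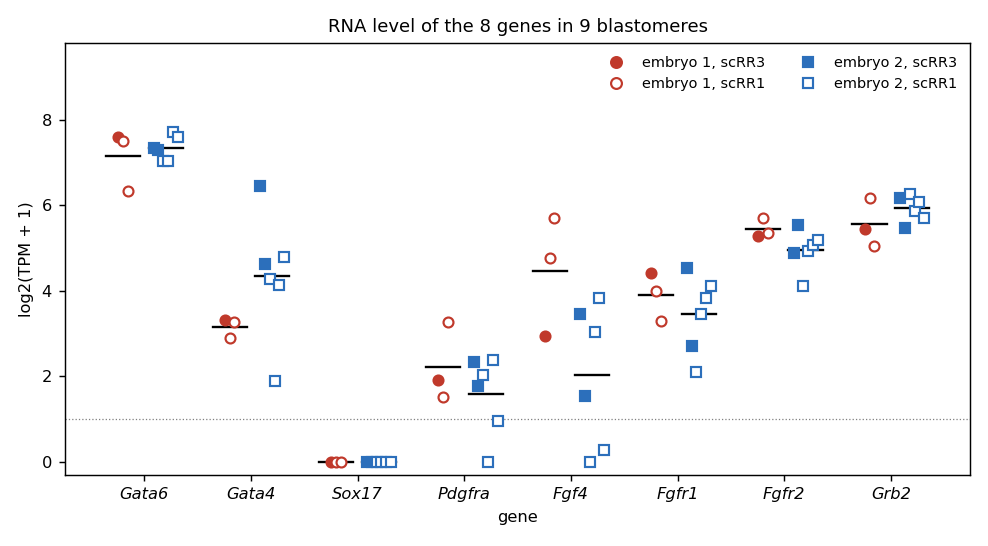
RNA level of each gene in each of the 9 cells, as log2(TPM + 1) on the vertical axis (a value of 1, the dotted line, equals 1 TPM). Circles are the 3 cells of embryo 1 and squares the 6 cells of embryo 2, filled symbols are scRR3 cells and open symbols scRR1 cells, and black lines are embryo means. Gata6 lies highest in all 9 cells, Sox17 is at 0 in all of them, and Fgf4 and Gata4 spread most widely.

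Among the transcription factors, Gata6, which starts the primitive endoderm programme, was by far the most abundant of the 8 genes. It is encoded at chr18:11052510-11085636 (mm10, plus strand, RefSeq extent). Its level was 193, 181 and 79.8 TPM in cells 1, 6 and 7 of embryo 1, and 129 TPM at the lowest, 158 TPM at the median and 208 TPM at the highest in embryo 2. All embryo 2 cells lay between 129 and 208 TPM, and cell 7 of embryo 1 was below them all. Among the genes above 1 TPM in a cell, Gata6 ranked between percentiles 85.5 and 94.2. The embryo means were 151 ± 62.1 TPM (SD, n = 3) and 163 ± 32.5 TPM (SD, n = 6). The difference on the log2 scale, embryo 2 minus embryo 1, was 0.19 with a pooled SD of 0.45, and it changed sign to -0.22 without cell 7 of embryo 1.

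Gata4, a related zinc finger factor that follows Gata6 in the blastocyst, was detected in all 9 cells. It lies at chr14:63198914-63271712 (minus strand). The embryo 1 cells held 8.93, 6.44 and 8.70 TPM, and the embryo 2 cells 2.71 TPM at the lowest (cell 6), 20.9 TPM at the median and 85.9 TPM at the highest (cell 2). In embryo 2, 5 of the 6 cells stood above every embryo 1 cell, and cell 6 stood below them all, so the embryos overlapped. The mean levels were 8.02 ± 1.38 TPM (SD, n = 3) and 28.9 ± 29.1 TPM (SD, n = 6), a log2 difference of 1.19 within a pooled SD of 1.24. Leaving out cell 2 of embryo 2 brought this difference to 0.78, and within scRR3 cells (1 against 2) and scRR1 cells (2 against 4) it was 2.22 and 0.68. Gata6 exceeded Gata4 in 9 of 9 cells, by 1.88 to 47.6 times.

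Sox17, which encodes an SRY-related factor of the specified primitive endoderm (chr1:4490928-4497426, minus strand), was listed at 0 in all 9 cells, and none of its 8 annotated transcripts had a value above 0. The tables keep no read depth, so no upper limit can be set on its level. Of 21 other genes of the later primitive endoderm, 3 were above 1 TPM in all 9 cells, 12 in some cells and 6 in none, and 5 were listed at 0 in all cells, among them the transcription factors Foxa2 and Hnf4a. The most abundant were Cited1, a transcriptional coregulator (108 to 663 TPM), Dab2, an endocytic adaptor (3.25 to 95.6 TPM), and Lrp2, the endocytic receptor megalin (0.21 to 66.6 TPM). Lrp2 was highest in cell 3 of embryo 2 (66.6 TPM) and cell 1 of embryo 1 (54.5 TPM), and Dab2 was highest in cell 1 of embryo 1 (95.6 TPM), cell 8 of embryo 2 (85.5 TPM) and cell 3 of embryo 2 (55.2 TPM).

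Pdgfra, the receptor whose surface display marks primitive endoderm cells (chr5:75151322-75198206, plus strand), was low. Its level was 2.75, 1.86 and 8.62 TPM in embryo 1. In embryo 2 it was 0 TPM at the lowest (cell 6), 2.75 TPM at the median and 4.23 TPM at the highest. Cell 7 of embryo 1, which had the lowest Gata6, had the highest Pdgfra, and the other 8 cells of both embryos overlapped. The log2 difference between the embryos was -0.65 (pooled SD 0.93), -0.13 without that cell and 0.15 within the scRR3 cells. RNA of the ligand gene Pdgfa exceeded that of Pdgfra in 9 of 9 cells and reached 5.34 to 30.3 TPM, whereas Pdgfb did not pass 2.11 TPM and Pdgfc, Pdgfd and the other receptor gene, Pdgfrb, were listed at 0 in all cells.

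Fgf4, the ligand, was the most variable of the 8 genes. It lies at chr7:144861386-144865245 (plus strand). Its level was 6.64, 26.1 and 51.0 TPM in cells 1, 6 and 7 of embryo 1, and in embryo 2 it was 0 TPM in cell 5, 0.21 TPM in cell 8, 1.9 TPM in cell 3, 7.19 TPM in cell 6, 10.0 TPM in cell 2 and 13.3 TPM in cell 7. The 2 highest values were both from embryo 1, while its cell 1 fell within the range of embryo 2. The coefficient of variation over the 9 cells was 127%, against 25.6% for Gata6. Mean levels were 27.9 ± 22.2 TPM (SD, n = 3) and 5.44 ± 5.57 TPM (SD, n = 6), a ratio of 5.13. On the log2 scale the difference was -2.44 with a pooled SD of 1.59. Without single cells it ranged from -3.21 to -1.82. It was -3.44 within the scRR1 cells but -0.43 within the scRR3 cells, where 1 cell of embryo 1 stood against 2 cells of embryo 2.

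Other genes of the FGF family were sparse. Of 21 further FGF genes, 15 were above 1 TPM in no cell and 11 of these were listed at 0 throughout, 5 passed 1 TPM in some cells, and Fgf3 did so in all 9 (2.18 to 14.9 TPM). Fgf3 is a close neighbour of Fgf4, its annotated end lying 18038 bases before the Fgf4 start. Fgf15, which starts 31287 bases beyond the Fgf4 end, was listed at 0 in every cell. Fgf13, an intracellular member of the family that is not secreted, was at 60.5 TPM in cell 8 of embryo 2 and at or below 7.70 TPM in the other 8 cells. Fgf1 ranged from 0 to 18.4 TPM, with its highest value in the same cell 8.

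The receptor genes were detected in all 9 cells. Fgfr2 (chr7:130162451-130266808, minus strand, RefSeq extent) was at 38.1, 50.9 and 39.8 TPM in embryo 1. In embryo 2 it was at 16.4 TPM at the lowest (cell 5), 31.2 TPM at the median and 45.7 TPM at the highest. Embryo 1 covered the upper end of this range and a single embryo 2 cell (cell 3) reached into it. The means were 42.9 ± 6.95 TPM (SD, n = 3) and 31.4 ± 9.58 TPM (SD, n = 6), and the log2 difference of -0.49 was slightly larger than the pooled SD of 0.42. It was -0.32 without cell 5 of embryo 2, -0.69 within scRR1 cells and -0.08 within scRR3 cells.

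Fgfr1 (chr8:25518759-25575718, plus strand) was lower than Fgfr2 in 9 of 9 cells, by 1.29 to 8.31 times. Its level was 20.4, 15.1 and 8.80 TPM in embryo 1, and 3.32 TPM at the lowest (cell 5), 11.6 TPM at the median and 22 TPM at the highest in embryo 2. The embryos overlapped over their whole range, with a log2 difference of -0.45 inside a pooled SD of 0.82. Fgfr3 was below Fgfr1 in 9 of 9 cells (1.37 to 13.2 TPM), Fgfr4 was at 0 to 4.29 TPM, and the coreceptor gene Klb at 0.87 to 13.5 TPM. Among these 5 other receptors and coreceptors, 1 was above 1 TPM in all cells, 3 in some and 1 in none.

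FGF receptor genes choose between alternative exons, IIIb and IIIc, for the end of the immunoglobulin-like domain nearest the membrane, and the choice decides which FGFs bind. FGF4 acts through the IIIc forms. The IIIb exon of Fgfr2 is shown because the transcript values below turn on which of these exons a transcript holds (GRCm38, coding strand, all in lower case). It is wholly coding and leaves a remainder of 1 base beyond whole codons.
Fgfr2 exon IIIb, chr7:130199758-130199905: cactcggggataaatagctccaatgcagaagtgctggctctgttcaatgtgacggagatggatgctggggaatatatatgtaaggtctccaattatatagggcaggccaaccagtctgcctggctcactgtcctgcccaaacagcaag

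Little of the Fgfr2 value was placed on transcripts that hold either exon. Transcripts with exon IIIc had 12.3 TPM in cell 2, 4.18 TPM in cell 3 and 2.98 TPM in cell 5 of embryo 2 and were listed at 0 in the other 6 cells. Transcripts with exon IIIb had 1.94 TPM in cell 6 of embryo 1 and were at 0 in the other 8 cells. Together these forms made up 6.13% and 0.611% of the Fgfr2 TPM summed over cells. Most of the rest was on transcripts that cover other parts of the gene. Fgfr2-217, which has 5 exons at the 3′ end of the gene and 2 exons over 2 Mb upstream of it, was present in all 9 cells at 2.06 to 37.8 TPM. With the retained-intron transcripts Fgfr2-221 and Fgfr2-224 it took 40.5% to 87.6% of the Fgfr2 TPM. This share was 40.5% to 74.6% in the 3 scRR3 cells and 80.4% to 87.6% in the 6 scRR1 cells. The cells therefore had Fgfr2 RNA, but in 5 of the 9 cells no value fell on either form. How far the protocol, including the 3′ bias of scRR1, sets this was not tested.

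More of the Fgfr1 value could be placed. Transcripts with exon IIIb were above 0 in 8 cells, at up to 9.8 TPM, and transcripts with exon IIIc in 5 cells, at up to 12.6 TPM. Cell 1 of embryo 1 had 12.6 TPM on IIIc and 5.65 TPM on IIIb, whereas cell 8 of embryo 2 had 2.14 TPM and 9.8 TPM, respectively. Summed over cells the IIIb transcripts held 34.2% and the IIIc transcripts 20.2% of the Fgfr1 TPM, and the remainder was on transcripts with neither. Retained-intron transcripts alone held 20.2% to 100% of the Fgfr1 TPM in a cell. All of these are estimates that RSEM makes by dividing reads among overlapping transcripts, and reads over the exons themselves were not analysed here.

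Grb2, the adaptor that links the receptors to the Ras exchange factor SOS (chr11:115644045-115708597, minus strand), was the steadiest of the FGF genes, with a coefficient of variation of 27.0%. It was at 42.5, 71.0 and 32.0 TPM in embryo 1. In embryo 2 it was at 43.4 TPM at the lowest, 61.9 TPM at the median and 75.2 TPM at the highest. The embryos overlapped, and cell 7 of embryo 1 had the lowest value. The log2 difference was 0.37 (pooled SD 0.40), and it was 0.38 within scRR3 and 0.37 within scRR1 cells.

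The transcripts that carried Grb2 differed by protocol. Grb2-201, which holds all 5 coding exons and a far upstream first exon, was above 0 in 3 of 3 scRR3 cells (31.3, 44.4 and 35.8 TPM) and in 1 of 6 scRR1 cells (29.0 TPM in cell 6 of embryo 1). Grb2-204 was at 0 in all 3 scRR3 cells and at 15.4 to 27.4 TPM in 5 of 6 scRR1 cells. It lacks a coding exon of 123 bases, a whole 41 codons, so that its coding sequence is 528 bases in place of 651. That exon is shown because its absence sets Grb2-204 apart from Grb2-201 (GRCm38, coding strand, all in lower case).
Grb2 exon absent from Grb2-204, chr11:115649771-115649893: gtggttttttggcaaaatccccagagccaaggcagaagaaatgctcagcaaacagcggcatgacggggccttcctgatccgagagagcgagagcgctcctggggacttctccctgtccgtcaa
Transcripts that hold this exon had values above 0 in all 9 cells (4.62 to 54.7 TPM), so the exon was represented under both protocols. Among them, Grb2-203 was also at 0 in all 3 scRR3 cells and at 4.62 to 24.3 TPM in 5 of 6 scRR1 cells. A split by protocol was therefore not particular to the transcript without the exon. Grb2-204 took 27.1% to 85.6% of the Grb2 TPM in the 5 cells that had it. The split followed the protocol within embryo 2, where 0 of 2 scRR3 and 4 of 4 scRR1 cells had Grb2-204. The part of the protocol in it, including the 3′ bias of scRR1, was not tested.

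**Figure D2:**
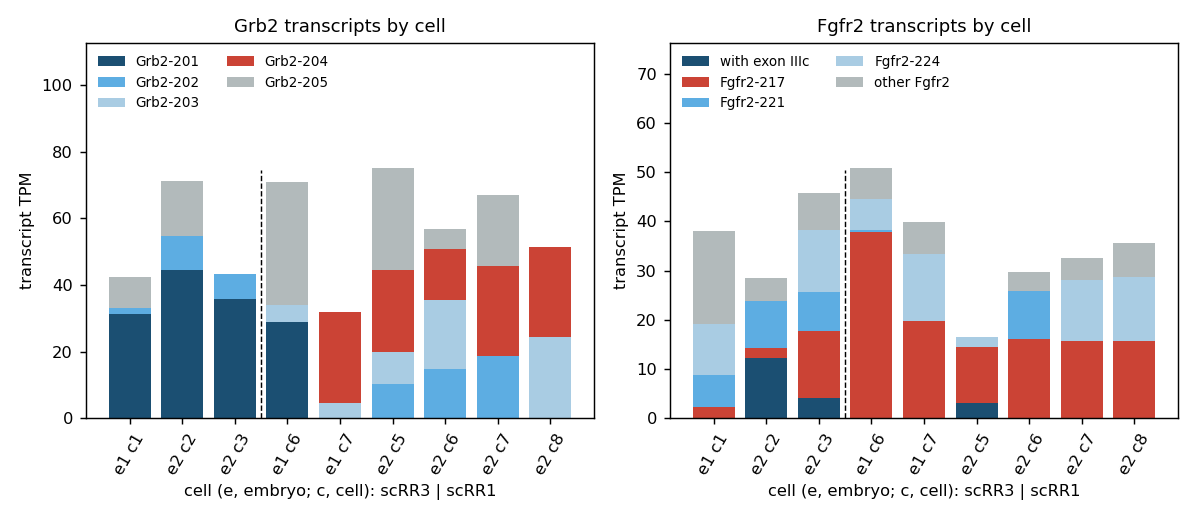
TPM of the annotated transcripts of Grb2 (left) and Fgfr2 (right), stacked for each cell. Cells are named by embryo (e) and cell (c), the 3 scRR3 cells stand left of the dashed line and the 6 scRR1 cells right of it. Grb2-204 (red, left panel) appears in 5 scRR1 cells and no scRR3 cell, and Fgfr2-217 (red, right panel) appears in all 9.

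Transcripts of the other genes were simpler, apart from Gata4. Gata6-201 held 89.5% to 100% of the Gata6 TPM, and Fgf4-201 held 77.9% to 100% of the Fgf4 TPM in the 8 cells with a value. For Gata4, the 7-exon transcripts with the complete coding sequence were above 0 in 3 of 3 scRR3 cells (2.55, 23.8 and 5.75 TPM) and 3 of 6 scRR1 cells (1.24 to 1.85 TPM). Gata4-203 was above 0 in all 9 cells, from 0.51 TPM in cell 6 to 46.7 TPM in cell 2 of embryo 2, and it was larger than the 7-exon forms in every cell. It starts within the gene at chr14:63213365-63213607 and lacks the exon with the first 613 coding bases, so that its coding sequence is 708 bases against 1326 in Gata4-201. Its share of the Gata4 TPM was 54.3% to 74.8% in scRR3 cells and 18.8% to 100% in scRR1 cells. What the 3′ bias of scRR1 adds to this was not tested. For each gene the transcripts added up to the gene value within 0.01 TPM.

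Over the 7 genes with a value above 0, 3 had higher and 4 had lower log2 means in embryo 2. The difference was beyond the pooled SD for 2 of them, Fgf4 and Fgfr2, both lower in embryo 2. Over all 13648 genes with a mean above 1 TPM, 23.4% were beyond it. None of the 8 genes separated the embryos completely. Of all 13648 genes, 0.843% separated the embryos with embryo 2 above, and 2.51% with embryo 2 below. The median difference of the 7 genes was -0.45 (pooled SD of the cell medians 0.31), against -0.04 over all genes. It was -0.076 within scRR3 cells and -0.27 within scRR1 cells, and without single cells it lay between -0.52 and -0.18. The smallest values were -0.18 without cell 5 of embryo 2, -0.19 and -0.22 without cell 1 and cell 7 of embryo 1, and -0.30 without cell 3 of embryo 2.

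The cascade downstream of the receptors was broadly present. Of 20 genes from the adaptors to the ERK kinases, 16 were above 1 TPM in all 9 cells and the other 4 in some cells. The most abundant were Map2k2, a kinase that activates ERK (103 to 254 TPM), Hras (38.4 to 156 TPM) and Sos1, the exchange factor that GRB2 brings to Ras (47.1 to 113 TPM). Of the 18 with a mean above 1 TPM, 2 separated the embryos, 1 with embryo 2 above and 1 with embryo 2 below. Over all 13648 such genes the shares were 0.843% and 2.51%, respectively. Frs2, the docking protein between FGF receptors and GRB2, ranged from 3.53 to 7.40 TPM in embryo 1 and was higher in embryo 2 (9.66 to 16.9 TPM). Mapk3, which encodes ERK1, was lower in embryo 2 (0.36 to 4.65 TPM) than in embryo 1 (5.54 to 16.3 TPM). The median difference of the list was 0.15 (pooled SD 0.26) and turned to -0.16 without cell 7 of embryo 1.

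Genes that ERK signalling is known to induce were uneven. Of 15 feedback and target genes, 4 were above 1 TPM in all cells, 8 in some and 3 in none. Spry2, an inhibitor of the pathway, led with 9.57 to 84.6 TPM, followed by the transcription factor gene Etv5 (1.12 to 17.7 TPM) and the inhibitor Spred2 (1.98 to 16.1 TPM). Spry2 was at 61.0 to 84.6 TPM in the 4 scRR1 cells of embryo 2 and at 17.1 and 31.9 TPM in its scRR3 cells. In embryo 1 the order was reversed, with 28.7 and 9.57 TPM in the scRR1 cells and 34.1 TPM in the scRR3 cell. Etv4 was listed at 0 in all cells. Dusp6, a phosphatase of ERK, ranged from 0 to 16.4 TPM and passed 1 TPM in 4 cells. None of these genes with a mean above 1 TPM separated the embryos. Over all 13648 such genes the shares were 0.843% with embryo 2 above and 2.51% with embryo 2 below. The median difference of the list was 0.05 (pooled SD 0.43). It ranged from -0.14 to 0.37 without single cells, and it was 0.61, beyond the pooled SD, when taken over genes with a mean above 5 TPM.

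Heparan sulphate, the cell surface sugar that FGF ligands need for receptor binding, was represented by 14 genes for its core proteins and enzymes. Of these, 5 were above 1 TPM in all 9 cells, 7 in some and 2 in none. Gpc4, a glypican core protein, was at 4.12 to 72.8 TPM, Sdc4, a syndecan, at 5.17 to 51.1 TPM, and Ndst1, a sulphotransferase, at 6.30 to 22.2 TPM. Gpc4 was highest in cell 1 of embryo 1 (72.8 TPM) and cell 2 of embryo 2 (70.6 TPM), both scRR3. Cell 3 of embryo 2, also scRR3, had 14.97 TPM, below the scRR1 cells 7 and 8 (38.1 and 29.6 TPM). The median difference between the embryos was 0.11 (pooled SD 0.66). No gene of the list separated the embryos, and few of all 13648 genes with a mean above 1 TPM did (0.843% with embryo 2 above, 2.51% below).

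**Figure D3:**
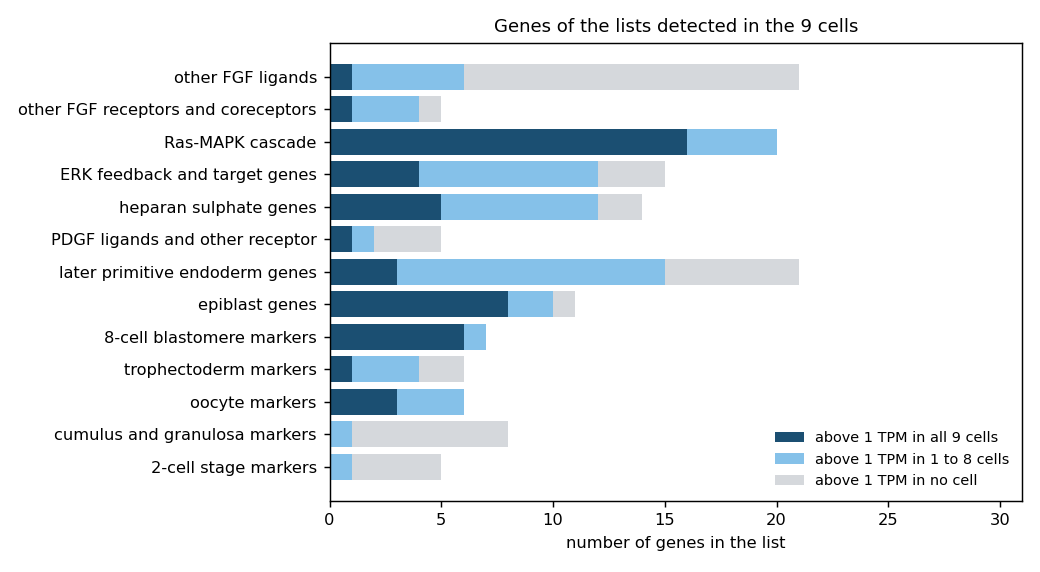
Number of genes in each list (horizontal axis) that were above 1 TPM in all 9 cells, in 1 to 8 cells or in no cell. The Ras-MAPK cascade was almost complete in every cell (16 of 20). Of the 21 genes listed as other FGF ligands, which include the unsecreted Fgf13, 15 were above 1 TPM in no cell.

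Epiblast genes were present beside the primitive endoderm genes. Of 11 genes, 8 were above 1 TPM in all cells, led by Pou5f1, Tdgf1 (47.5 to 185 TPM) and Klf2 (10.5 to 138 TPM). Nanog was detected in all 9 cells, with values of 18.6, 46.7 and 83.0 TPM in embryo 1 and a range of 10.3 to 29.0 TPM in embryo 2. Sox2, in contrast, was listed at 0 in 6 cells and did not pass 0.60 TPM. Gata6 and Nanog RNA therefore stood together in each of the 9 cells, with Gata6 above Nanog in 8 of them by 3.88 to 18.7 times and at 0.960 times Nanog in cell 7 of embryo 1. For Tdgf1 and Klf2, 2 of the 8 listed genes with a mean above 1 TPM, all embryo 2 cells lay below all embryo 1 cells. This held for 2.51% of all 13648 genes with such a mean. The median difference of the list was -0.45 (pooled SD 0.26), and -0.04 when genes of low level were kept.

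Across the 9 cells the genes did not vary as one group. The 21 pairs among the 7 detected genes had Pearson correlations of log2(TPM + 1) between -0.48 (Fgfr2 and Grb2) and 0.51 (Fgf4 and Fgfr2), with a median of 0.15, and 14 of the 21 kept their sign within the 6 cells of embryo 2. These are descriptions over 9 cells that share embryos and protocols. The pair Fgf4 and Fgf3 was closer, with r = 0.76 and Spearman's rho = 0.87, r = 0.73 within embryo 2, 0.90 within the 6 scRR1 cells and 0.58 without the 2 cells farthest from the median of Fgf4. Gata6 and Nanog had r = -0.72 and rho = -0.60, and r = -0.72 within embryo 2. Without the 2 cells farthest from the median of Gata6, r was -0.20, and without single cells it lay between -0.90 and -0.29. Leaving out the 2 farthest cells also narrows the range of Gata6, so it cannot tell how far the relation rested on them. Fgf4 and Nanog had r = 0.61 over the 9 cells and r = -0.12 within embryo 2.

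**Figure D4:**
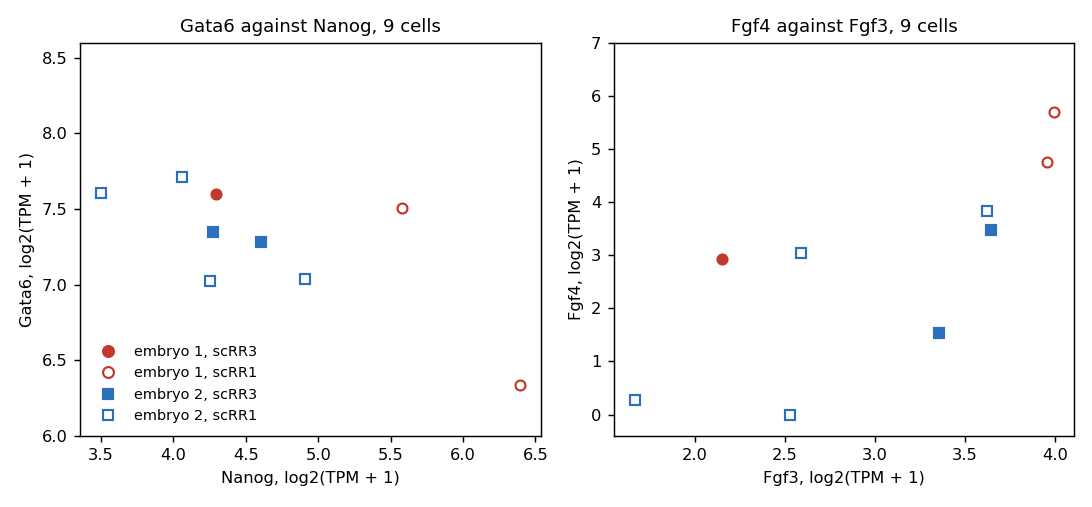
Gata6 against Nanog (left) and Fgf4 against its chromosomal neighbour Fgf3 (right), each as log2(TPM + 1), with 1 symbol per cell, circles for embryo 1, squares for embryo 2, filled for scRR3 and open for scRR1. Cell 7 of embryo 1 is at the lower right of the left panel and at the upper right of the right panel.

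Higher correlations with single members were found by picking the most alike of many other genes. For each of the 7 detected genes, the genes with a mean above 1 TPM that were most like it over the 9 cells were Ddx18, Cox18 and Uckl1 for Gata6 (r = 0.96 to 0.93), Rtl6, Ube2j1 and Acadl for Gata4 (0.94 to 0.93), I830077J02Rik, Epb41l1 and Nsf for Pdgfra (0.96 to 0.93), Lhfpl5, Tnfaip8 and Cfap77 for Fgf4 (0.94 to 0.92), Sall1, Gigyf1 and Rrm2 for Fgfr1 (0.93), Gskip, Gm43766 and C1ql1 for Fgfr2 (0.97 to 0.92) and Uba3, Ppp2r2c and Zbtb11 for Grb2 (0.96 to 0.94). Each member was compared with 13641 genes, of which 5 to 15 had r above 0.9. Picking the highest of so many r values over 9 cells yields high values even among unrelated genes. How many would pass 0.9 by chance was not examined.

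In the DNA of the same cells all 8 loci were called replicated in most of embryo 2 and unreplicated in embryo 1. For embryo 1 this call does not tell G1 from G2/M. No locus was called replicated in any embryo 1 cell. In embryo 2, 7 of the 8 were replicated in 6 of 6 cells, where 72.7% of the 11514 genes with a mean above 1 TPM and a bin in the table were. The exception was Fgf4, which was replicated in 5 of 6 cells. In cell 6, the embryo 2 cell with the lowest share of replicated bins (62.4%), the bin of Fgf4 lay in an unreplicated run of 14 bins (chr7:144800001-145360000) that also held Fgf3 and Fgf15. Fgf4 RNA in that cell was 7.19 TPM, inside the range of 0 to 13.3 TPM of the other 5 cells, in which the locus was replicated. Sox17 was replicated in 6 of 6 cells and listed at 0 in the RNA of each. In cell 1 of embryo 1 the RefSeq extent of Fgfr2 was called unreplicated. There, 36 of the 75 bins under the longer GENCODE extent, which reaches to the far upstream exons of Fgfr2-217, were called replicated.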

How the data were processed

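scRR-seq-RNA and scRR-seq-DNA were available for 9 single blastomeres of 2 embryos. The authors deposited TPM values of genes and transcripts, made with the ramdaq pipeline (Hisat and RSEM, GENCODE M25, mm10) after setting reads to a common number, and a replication state score per 40-kb bin (1 replicated, -1 unreplicated, 0 no data), called with AneuFinder after alignment with BWA 0.7.17-r1188 (version per the submitters' processing notes). Each TPM column sums to a fixed total and keeps no read depth, so no counting interval is given. Each table also held 14 columns of no labelled sample, which were not used. All 9 RNA headers carry the same embryo and cell, so RNA columns were assigned by the number that closes the sample titles. Numbers 11 to 17 are scRR3 and 20 to 25 scRR1 in the sample list of the study.

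Symbols, transcripts and exons were taken from GENCODE M21 and gene extents from RefSeq, both on GRCm38, the mm10 build. The 142699 transcripts included every M21 transcript of the 8 genes. Levels were compared as log2(TPM + 1), a scale that understates differences of low genes. Embryos were compared by mean difference, pooled SD and overlap, and no test was made because each embryo is 1 replicate. The calculation was tested on simulated data. A locus took the sign of the mean state over its bins. Genes named are the 8 members, the 3 most abundant of each list and the 3 most alike genes of each member. Nanog, Sox2, PDGF and receptor family genes, the other Fgf neighbours and genes that separated the embryos were named outside this rule, for their roles or after their values were seen. Members and lists were chosen with earlier results of these data known. Some sequences and values are not reported here. Python 3.11.15, pandas 2.3.3 and numpy 2.4.6 were used.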

Additional observations from a re-analysis of the deposited data

Results flagged for a closer look

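Gata4 in cell 2 of embryo 2 stood apart from the other 5 cells of that embryo. Its level was 85.9 TPM, and the gap to the next cell (26.5 TPM) was 0.714 of the range of the 6 cells, above the 95% critical value of Dixon's test for 6 values. The other 6 detected genes had no such cell in embryo 2, and embryo 1, with 3 cells, was not examined. The ratio was taken on TPM. On the log2(TPM + 1) scale used to compare levels, the gap is a smaller part of the range and falls below that critical value. There the widest gap is at the low end, between cell 6 (2.71 TPM) and the other cells. For normally distributed values the critical value is passed by chance in about 1 in 20 groups, and 7 were examined. In this cell Gata4-203 held 46.7 TPM, the 7-exon transcripts 23.8 TPM and Gata4-206 13.9 TPM.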

How the results depend on the processing

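No paired analysis was possible because the result comes from no test: each embryo is 1 sample, and cell numbers name cells only. At a detection threshold of 5 TPM, an average of 6.33 genes in embryo 1 and 5.17 in embryo 2 were detected, against 7 and 6.33 at 1 TPM. The median embryo difference of the 7 genes was -0.076 within scRR3 cells (1 against 2 cells) and lay within 1 pooled SD of -0.45 under the other 14 alternatives. Of 105 recomputed differences of single genes, 103 lay within 1 pooled SD of the value reported. The others were Gata6 (-0.28) and Fgf4 (-0.43) within scRR3 cells. Gata6 turned in sign there and without cell 7 of embryo 1, and Pdgfra turned within scRR3 cells. The median of the later primitive endoderm list, -0.67, was -0.20 without cell 1 of embryo 1, 0.01 for genes with a mean above 5 TPM and 0 with no filter on low values. At the same limit of 5 TPM the median of the ERK feedback and target list was 0.61 in place of 0.05. The trophectoderm list had -1.25 and, without that cell, -0.48, or with no filter -0.51. The count of loci replicated in all embryo 2 cells was 7 with the bin at the start site and, chosen after seeing the data, with the GENCODE extent. Causes were not tested. Single cells, a read depth per cell that the TPM values do not keep and 1 embryo per state limit all of these values.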

Other observations

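Cell 7 of embryo 1 combined several extremes of the 9 cells, given here as values. It had the lowest Gata6 (79.8 TPM) and Grb2 (32.0 TPM) and the highest Pdgfra (8.62 TPM), Fgf4 (51.0 TPM), Fgf3 (14.9 TPM) and Nanog (83.0 TPM). It also had the smallest share of bins called replicated (0.00385%). Its 11088 genes above 1 TPM were close to the lowest number among the cells (11058). Cell 5 of embryo 2 had the lowest Fgfr1 (3.32 TPM), Fgfr2 (16.4 TPM) and Pdgfa (5.34 TPM), listed Fgf4 at 0, and had the highest Grb2 (75.2 TPM) and Spry2 (84.6 TPM) and the largest share of mitochondrial genome RNA (18.2%).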
